A study of Arabidopsis thaliana with 7 samples.

Results

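The genes described here are 10 cell cycle regulators of Arabidopsis thaliana, 6 mitotic B-type cyclins and 4 B-type cyclin-dependent kinases (CDKB), out of 27826 genes measured in 8-cell embryos. They were chosen by the probe set identifier, which holds the locus name, without use of their values. The cyclins are CYCB1;1 (AT4G37490_at), CYCB1;2 (AT5G06150_at), CYCB1;3 (AT3G11520_at), CYCB1;4 (AT2G26760_at), CYCB2;1 (AT2G17620_at) and CYCB2;2 (AT4G35620_at). The kinases are CDKB1;1 (AT3G54180_at), CDKB1;2 (AT2G38620_at), CDKB2;1 (AT1G76540_at) and CDKB2;2 (AT1G20930_at). All 10 have a probe set of their own on the array, and none shares its values with another probe set.

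Embryos of 2 genotypes were compared, both in the Columbia (Col-0) background and both at the 8-cell stage: 3 arrays of bodenlos (bdl, IAA12) mutants and 4 arrays of wild type. Each array was hybridised with RNA of about 40 to 50 embryos picked by micromanipulator. BODENLOS is an Aux/IAA protein that represses MONOPTEROS, an auxin response factor, and the title of the series concerns how the embryo orients its cell divisions. The labels do not give the bdl allele, whether it was expressed from a transgene, or whether replicates came from separate harvests, so the p-values reflect the spread between arrays, which may be technical. The design text mentions 3 replicates of each genotype, and the fourth labelled array of wild type was kept.

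B-type cyclins and CDKB kinases form the machinery that carries plant cells through G2 and mitosis. The kinase subunit is active only when bound to a cyclin, and the cyclins are destroyed at anaphase by the anaphase-promoting complex. Many transcripts of these families, though not all, accumulate late in the cycle under MYB3R transcription factors. In an unsynchronised tissue the level of such transcripts depends on how many cells are near mitosis. In bulk RNA of whole embryos, fewer cells expressing a gene and less RNA per cell cannot be told apart.

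The values are array intensities, and genotypes were compared on the log2 scale with limma, a linear model fitted to all 27826 genes at once. A gene counted as changed at an adjusted p under 0.05 (Benjamini-Hochberg over all genes). The median intensity of an array was between 8.44 and 9.37, and no detection calls were used, so the level of background is unknown. IAA12, the gene mutated in bdl, read 432, 477 and 443 in bdl arrays, against 167, 152, 135 and 144 in wild-type arrays, a log2 difference of 1.59 (limma, adjusted p = 0.00287). Of 6 embryo markers, WOX2, WOX8, WOX9, ATML1 and LEC1 read between 178 and 1461 on every array, and DRN fell to 29.2 to 34.9 in bdl, against 90.9 to 175 in wild type (limma, adjusted p = 0.00657). WOX9 was also lower in all bdl arrays, at 688 to 810 against 1083 to 1461 (limma, adjusted p = 0.0880). LEC1 was higher in all of them, at 468 to 627 against 308 to 432 (limma, adjusted p = 0.227). The mean log2 intensity of the 6 was 8.27 to 8.39 in bdl and 8.54 to 8.92 in wild type, which do not overlap. Of all genes, 11.2% were separated between genotypes. Of 9 endosperm markers 6 had means under the 25th percentile of all genes in both genotypes, and SUC5 was the bright exception at 86.5 to 185 in bdl and 176 to 320 in wild type. The mean log2 intensity of 10 seed coat markers was 2.28 to 2.92 in bdl and 2.89 to 3.45 in wild type. That of 11 pollen markers was 2.08 to 4.08 in bdl and 2.28 to 5.97 in wild type. The part of carried tissue in the results below was not tested, except where a value is given.

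None of the 10 genes changed by this test, where 1.76% of all genes did, 0.902% higher and 0.859% lower in bdl. Without adjustment, 1 of the 10 had a p under 0.05, against 10.7% of all genes, and that gene was CYCB2;1. The bdl mean was higher for 6 members and lower for 4, with a median log2 difference of 0.10, while 48.3% of all genes had a higher bdl mean and the median over all genes was -0.01. Leaving out 1 array at a time, 5 to 9 members had a higher bdl mean, and the median was 0.074 to 0.29, highest without bdl replicate 2. The 95% intervals, which are per gene and not adjusted over genes, lay inside a 2-fold difference in either direction for 7 members. Those of CYCB2;1, CYCB2;2 and CDKB1;2 reached past a 2-fold higher level in bdl.

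**Figure D1:**
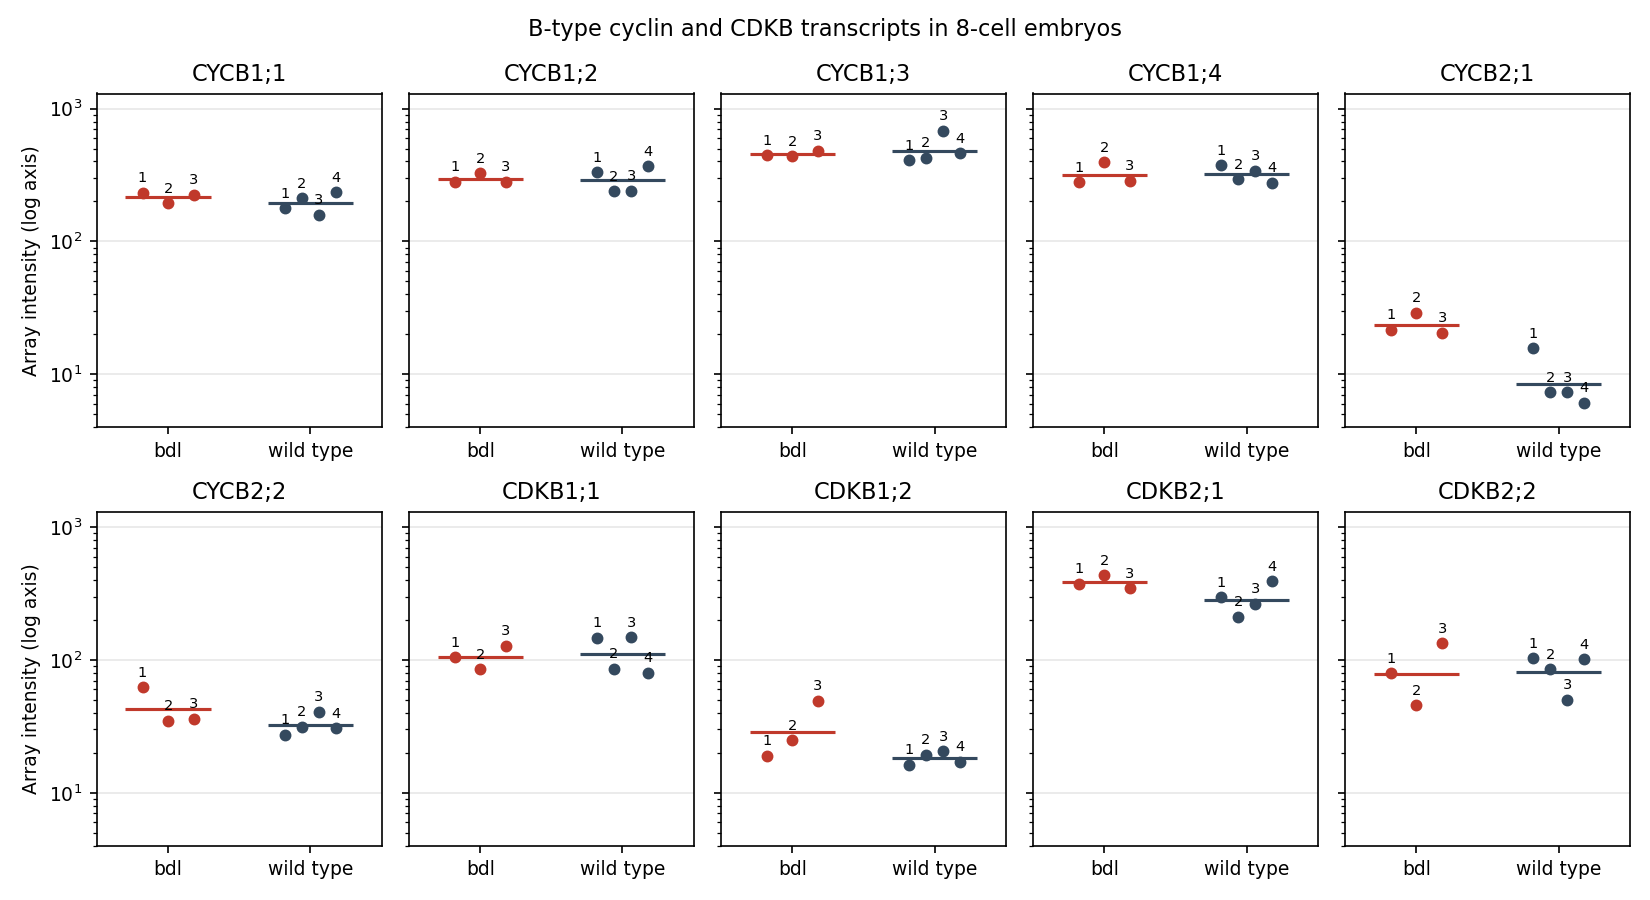
Array intensity (log axis) of each of the 10 genes, with bdl arrays in red on the left and wild-type arrays in dark blue on the right. Points are single arrays with their replicate number and lines are geometric means. The 3 bdl arrays lie above all 4 wild-type arrays for CYCB2;1, at 20.6 to 29.0 against 6.11 to 15.8, and the genotypes overlap in the other 9 panels.

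The CYCB1 cyclins are the best known mitotic cyclins of Arabidopsis, and reporters of the first of them are widely used to mark dividing cells. CYCB1;1 read 234, 193 and 225 in bdl arrays, against 178, 213, 159 and 235 in wild-type arrays. All 3 bdl values lay inside the wild-type range, and the log2 difference was 0.16 ± 0.20 (SE, 3 against 4 arrays, limma, adjusted p = 0.856), with a 95% interval of -0.31 to 0.63. CYCB1;2 read 283, 325 and 283 in bdl, against 333, 239, 240 and 367 in wild type, again with every bdl array inside the wild-type range. CYCB1;3 read 446, 440 and 484 in bdl, against 410, 426, 682 and 460 in wild type, where replicate 3 was the highest array. CYCB1;4 read 281, 393 and 286 in bdl, against 376, 293, 342 and 277 in wild type. The bdl value of replicate 2 was the highest of the 7 arrays and the other 2 lay inside the wild-type range.

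The 4 CYCB1 genes thus had small estimates with narrow intervals. Their log2 differences were 0.16, 0.03, -0.08 and -0.02, and the intervals together spanned 0.660-fold to 1.55-fold. The mean log2 intensity of the 4 genes was 8.24 to 8.34 in bdl arrays and 8.14 to 8.34 in wild-type arrays.

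The CYCB2 cyclins are a separate class of B-type cyclins, also expressed around G2 and mitosis. CYCB2;1 read 21.6, 29.0 and 20.6 in bdl arrays, against 15.8, 7.34, 7.37 and 6.11 in wild-type arrays. Every bdl array was above every wild-type array, and replicate 1 stood above the other wild-type arrays. It was the one member of the 10 whose genotypes did not overlap, where 11.2% of all genes are separated in this way, 5.71% higher and 5.53% lower in bdl. Its geometric mean was 23.5 in bdl and 8.50 in wild type, a log2 difference of 1.47 ± 0.34 (SE, 3 against 4 arrays), or 2.76-fold. It missed the threshold (limma, adjusted p = 0.0993), and its p ranked 716 of all genes. Its 95% interval was 0.68 to 2.25. Without wild-type replicate 1 the difference was 1.76 and the gene was called (limma, adjusted p = 0.0151), and without each of the other arrays the adjusted p was 0.189 to 0.297. With 16 added to every intensity, the difference was 0.67 (limma, adjusted p = 0.119). The wild-type mean log2 intensity, 3.09, lay under the median over all genes, 3.17, and is not known to exceed background.

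CYCB2;2, the other member of this class, read 62.6, 35.0 and 36.2 in bdl arrays, against 27.4, 31.6, 40.7 and 30.7 in wild-type arrays. Replicate 1 of bdl was above the wild-type range and the other bdl arrays were inside it. The log2 difference was 0.41 ± 0.26 (SE, 3 against 4 arrays, limma, adjusted p = 0.665), with an interval of -0.19 to 1.02. Without replicate 1 of bdl it was 0.14 (limma, adjusted p = 0.915). The mean log2 intensity of the pair of CYCB2 genes was 4.77 to 5.20 in bdl and 3.77 to 4.38 in wild type, a gap to which the first gene, separated on its own, contributes.

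CDKB1 kinases bind A2-type cyclins and restrain the onset of endoreduplication, and they are needed for symmetric divisions in the stomatal lineage. CDKB1;1 read 105, 84.8 and 128 in bdl arrays, against 147, 86.0, 148 and 80.2 in wild-type arrays. The bdl arrays lay inside the wild-type range, which fell into a high pair (replicates 1 and 3) and a low pair (replicates 2 and 4), and the log2 difference was -0.08 ± 0.30 (SE, limma, adjusted p = 0.954). The low pair were the 2 wild-type arrays with the highest pollen marker means, 4.06 and 5.97, and over all 7 arrays the gene's log2 intensity had a Pearson correlation of -0.83 with the pollen marker mean. This was the most extreme of 10 such correlations, those of the other 9 members being -0.48 to 0.45. With that mean as a covariate the log2 difference was -0.31 (limma, adjusted p = 0.687), and the part of pollen RNA in these levels was not tested further.

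CDKB1;2, the close relative of that kinase, read 19.0, 24.8 and 49.5 in bdl arrays, against 16.3, 19.4, 20.6 and 17.2 in wild-type arrays. Replicates 2 and 3 of bdl were above every wild-type array and replicate 1 was inside their range. The log2 difference was 0.64 ± 0.32 (SE, limma, adjusted p = 0.552), with an interval of -0.10 to 1.38. Without replicate 3 of bdl, the highest array, the difference was 0.25 (limma, adjusted p = 0.836).

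The CDKB2 kinases are specific to plants, like CDKB1, and their transcripts mark G2 and mitosis in shoot and root meristems. CDKB2;1 read 376, 434 and 346 in bdl arrays, against 298, 212, 265 and 391 in wild-type arrays. The bdl values were close to each other and higher than 3 of the 4 wild-type arrays, but replicate 4 of wild type lay among them. The log2 difference was 0.43 ± 0.24 (SE, limma, adjusted p = 0.601), with an interval of -0.12 to 0.99. CDKB2;2 read 79.8, 45.8 and 134 in bdl arrays, against 103, 85.2, 50.3 and 101 in wild-type arrays. It had the widest spread within bdl of the 10 genes, 2.92-fold between its highest and lowest array, and the largest SE, 0.40, around a log2 difference of -0.05 (limma, adjusted p = 0.980).

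**Figure D2:**
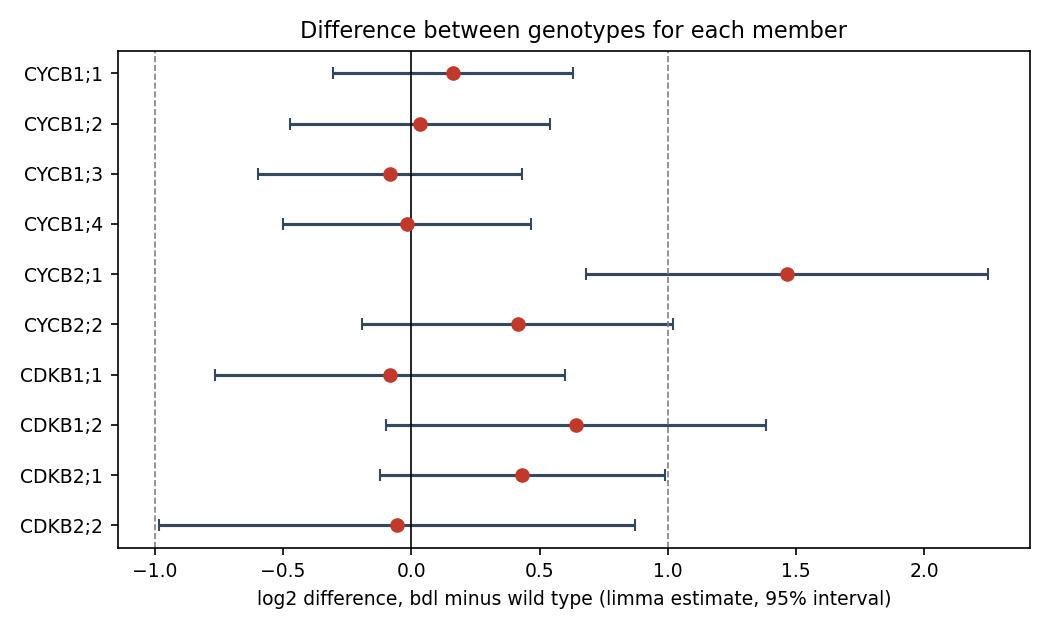
Log2 difference between bdl and wild type for each of the 10 genes (points, limma estimates) with the 95% interval (bars), where dashed lines mark 2-fold lower and 2-fold higher. The CYCB1 estimates lie between -0.08 and 0.16 with intervals inside the dashed lines, and only the interval of CYCB2;1, 0.68 to 2.25, does not hold 0.

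No shared variation of the 10 genes from array to array was seen, though 7 arrays are too few to exclude it. After each genotype's mean was removed, the Pearson correlation over 7 arrays was positive for 21 of the 45 pairs of members and negative for 24, with a median of -0.06 and a range of -0.83 to 0.90. These values share the arrays and are given as a description. The highest belonged to CYCB1;2 with CDKB2;1, whose wild-type arrays rank alike, with replicate 4 highest and replicate 2 lowest. The mean log2 intensity of all 10 members was 6.87 to 7.07 in bdl and 6.53 to 6.80 in wild type, which do not overlap. Without CYCB2;1, a set chosen after its values were seen, the mean of the other 9 overlapped between genotypes, at 7.09 to 7.37 in bdl and 6.93 to 7.11 in wild type. The overlap was narrow, as only bdl replicate 2, at 7.09, lay under the highest wild-type array, at 7.11.

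**Figure D3:**
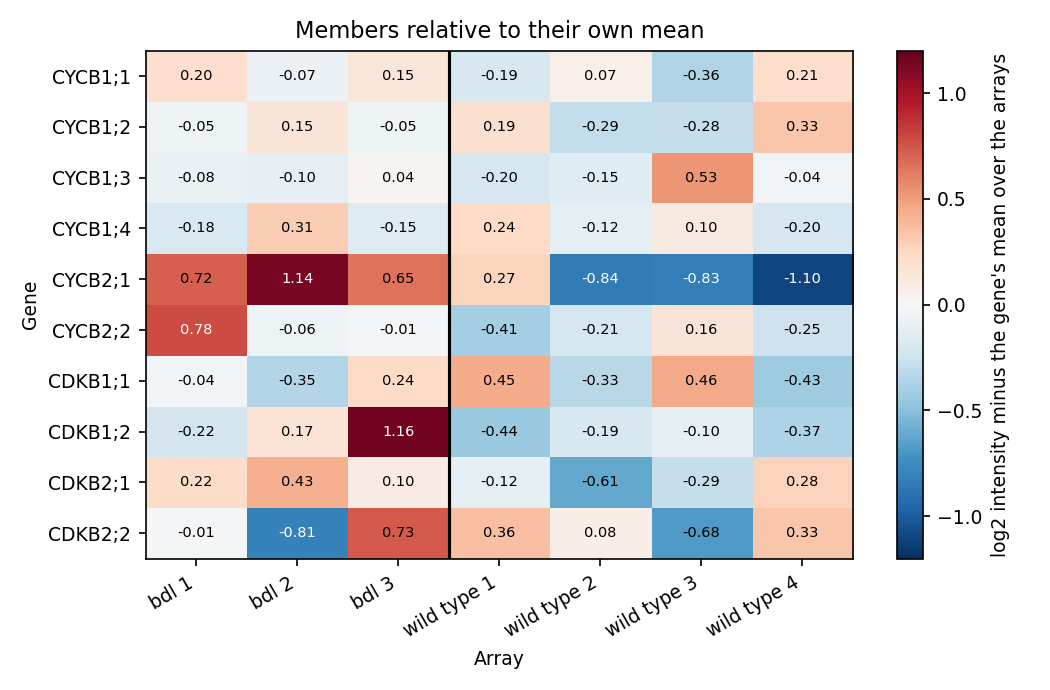
Log2 intensity of each of the 10 genes (rows) on each array (columns, bdl left of the black line and wild type right of it) minus the gene's own mean over the 7 arrays. CYCB2;1 is above its mean in all bdl arrays, by 0.65 to 1.14, and no array is high or low for all 10 genes.

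Of the genes outside the 10, those with the profile closest to the members' mean over the 7 arrays were AT5G39410, AT5G52130, RMA1, AT1G44890 and ELF4-L1, with Pearson correlations of 0.97 to 0.99. With so few arrays, 99 of 20859 genes exceeded 0.90, so this likeness is a description of 7 values. Members that vary widely weigh most in that mean, such as CYCB2;1 at -1.1 to 1.1 and CDKB1;2 at -0.44 to 1.16 around their own means.

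The genome holds further B-type cyclins. Of 4 outside the members none changed, and the median log2 difference was 0.03. CYCB2;3, of the same class as the CYCB2 genes above, was at 0.33 (limma, adjusted p = 0.687) and CYCB2;4 at -0.20 (limma, adjusted p = 0.876).

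A-type cyclins act from S phase to early mitosis, and those of the A2 class are partners of CDKB1. None of 10 changed, with a median of 0.04. CYCA2;1 read 54.8, 42.2 and 66.7 in bdl arrays, against 9.27, 26.8, 14.5 and 21.5 in wild-type arrays. It was higher in every bdl array than in any wild-type array and missed the threshold, with a log2 difference of 1.68 ± 0.37 (SE, limma, adjusted p = 0.0848). CYCA2;2 was separated in the same direction at 0.80 (limma, adjusted p = 0.256). Their relative CYCA2;3, which with CDKB1 limits endoreduplication, was at -0.96 (limma, adjusted p = 0.352), and its bdl range of 27.4 to 49.0 overlapped the wild-type range of 44.8 to 118. CYCA3;2 was separated downward, at -0.49 (limma, adjusted p = 0.453). Of all genes, 5.71% were separated upward and 5.53% downward.

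CDKA;1, the kinase that acts at both the entry into S phase and into mitosis, and 8 CDK subunits or modifying kinases did not pass the test, with a median of 0.17. The CDK-activating kinases CDKD;1 and CDKF;1 had the smallest p, with log2 differences of 0.83 and 0.73 (limma, adjusted p = 0.238 and 0.397). Both were separated upward, as were 5.71% of all genes. None of 5 genes of the MYB3R factors, which control mitotic transcription, passed the test, nor did AT1G63100, listed with them. Their median was 0.19, but -0.30 without bdl replicate 1 and -0.29 over the 4 that are brighter than the median gene. MYB3R1 was at -0.74 and AT1G63100 at -0.87 (limma, adjusted p = 0.532 and 0.447), and without wild-type replicate 3 MYB3R1 was at -0.43. Of 9 genes of the E2F, DP and RBR1 pathway, which controls entry into S phase, none changed and the median was 0.04, but -0.14 without bdl replicate 1 and -0.20 without wild-type replicate 1. DEL3, an atypical E2F, was at 0.97 and DPA at -0.63 (limma, adjusted p = 0.302 and 0.595).

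None of 18 genes of the anaphase-promoting complex, its regulators and the spindle checkpoint changed, with a median of -0.05, but 0.046 without bdl replicate 1. CCS52A1, an activator of the complex that promotes endoreduplication, was at 0.89 and HBT, a core subunit, at 0.56 (limma, adjusted p = 0.352 and 0.479). With 16 added to every intensity CCS52A1, which is dim, was at 0.32. Of 15 genes of mitosis and cytokinesis, 12 had a higher bdl mean, against 48.3% of all genes, but none changed, and the median was 0.21. The 15 genes share the same arrays, so the count is given as a description. Their mean log2 intensity was 7.01 to 7.13 in bdl and 6.84 to 7.02 in wild type, which overlap. AUR2, an Aurora kinase, was at 0.31 and EDE1, a microtubule-binding protein, at -0.69 (limma, adjusted p = 0.628 and 0.432). None of 16 DNA replication genes changed, the median was 0.0043, and CDC45 was at 0.49 and CDC6 at -0.39 (limma, adjusted p = 0.580 and 0.619).

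Over these 8 lists no gene of 87 changed by limma. Without adjustment, 6 were higher and 4 lower at a p under 0.05, as were 5.93% and 4.78% of all genes in those directions.

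**Figure D4:**
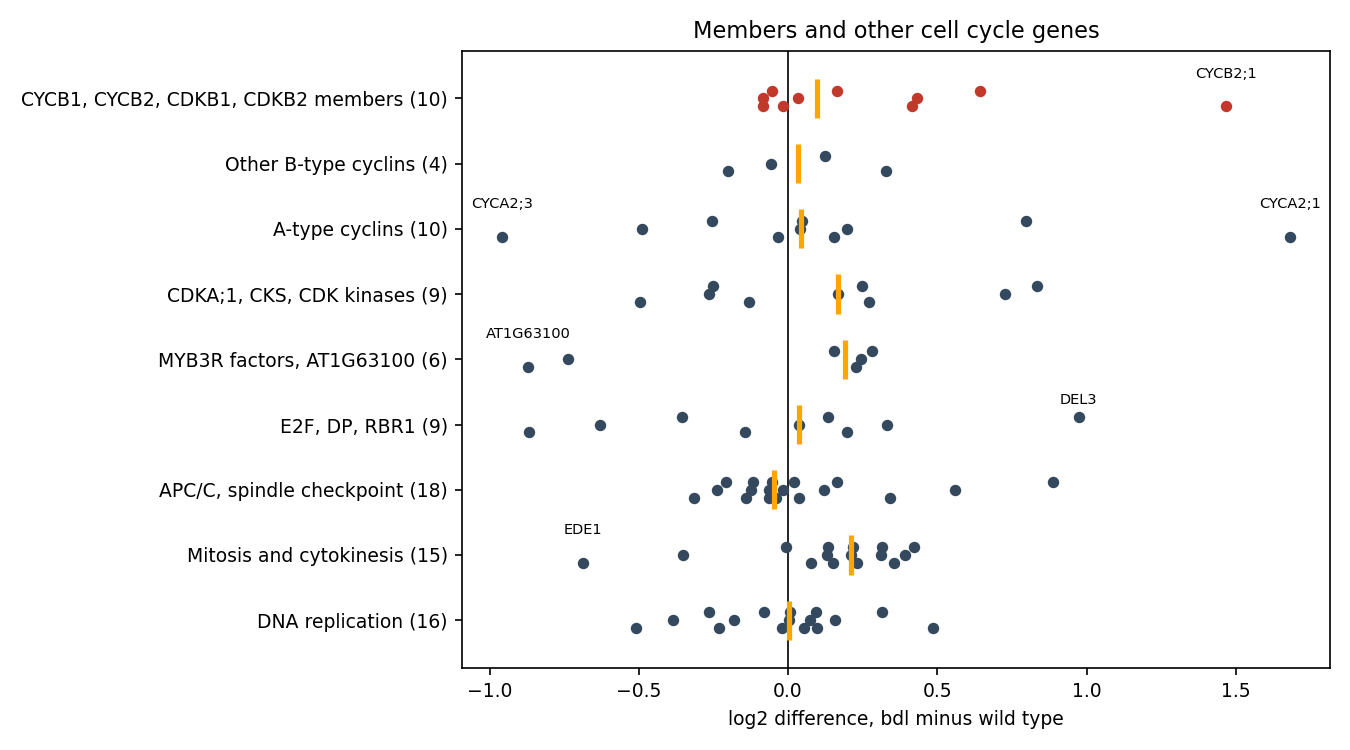
Log2 difference between bdl and wild type of the 10 members (red) and of 87 other cell cycle genes in 8 lists (dark blue), with the median of each list as an orange bar and the number of genes in brackets. Medians lie between -0.05 and 0.21, and CYCB2;1 at 1.47 and CYCA2;1 at 1.68 lie farthest from 0.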

How the data were processed

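Levels were measured on 7 one-colour arrays with biotin-labelled whole-transcript cDNA, per the labels' protocols. The authors deposited 1 table of intensity values per array and probe set. RMA is the one tool named in the submitters' processing notes. The sources used here name neither the chip definition nor the build. The deposited intensity values were linear (1.24 to 3216) and resemble back-transformed RMA output, though nothing in the labels says so, and log2 was taken with no further scaling. Names were taken from RefSeq (assembly TAIR10.1), whose gene list held 27241 of the loci. No sequences were used.

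The test was limma 3.58.1 under R 4.3.3, 2-sided, with genotype alone in the model and eBayes moderation without trend or robust fitting. The median SE over all genes was 0.27. The number of arrays limits the precision. On data simulated from the mean and spread of each of the 27826 genes, the fit called 14.6% of shifts of 1 (log2), 64.8% of shifts of 2 and 83.6% of shifts of 3. Each run shifted 200 genes, with noise drawn independently for each gene, while 490 genes were called in the real comparison. Recovery in the real data may therefore differ. Members were picked by identifier and not by value, but earlier results of these data were known when members and lists were chosen. All members are named, and from each list its called genes or else the 2 with the smallest p, with CYCA2;3 and CYCA3;2 added after their values were seen. Alternatives were other scalings, filters, variance models, array weights, covariates, an added constant and omission of each array. Figures were drawn with matplotlib 3.10.9.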

Additional observations from a re-analysis of the deposited data

How the results depend on the processing

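Across 17 alternatives no member and none of the 87 other cell cycle genes was called, except CYCB2;1 without wild-type replicate 1 (1.76, limma, adjusted p = 0.0151). Leaving out 1 array each, the count of members called was therefore 0 to 1, and the count over all genes was 278 to 374, against 490 with all arrays. The log2 difference of CYCB2;1 was positive throughout, 0.67 to 1.76, with the lowest value after 16 was added to every intensity. Members with differences near 0 changed sign. CYCB1;4 was at 0.012 after quantile normalization and 0.014 after cyclic loess, and at -0.17 to 0.069 over the omissions. CDKB2;2 was at 0.026 with array weights and -0.44 to 0.34 over the omissions. Over the omissions CYCB1;2 was at -0.059 to 0.15, CYCB1;3 at -0.16 to 0.081 and CDKB1;1 at -0.24 to 0.067. The cause was not tested. Deviations of same-numbered arrays correlated at 0.04 to 0.05 over genes, and those of other pairs at -0.08 to 0.11. With so few arrays, these values cannot decide whether the replicate numbers pair the arrays. With the replicate number as a block, which leaves wild-type replicate 4 without weight, 188 genes were called, no member among them, CDKB2;2 was at 0.047 and IAA12 was not called (1.58, limma, adjusted p = 0.0689). The scalings moved the median over all genes by less than 0.1 on the log2 scale. The added 16 also lowered other dim genes, CYCA2;1 to 1.07, CYCA2;2 to 0.44, CDKD;1 to 0.42 and CDKF;1 to 0.46. Over the omissions the medians of 6 of the 8 other lists took both signs, that of MYB3R factors with AT1G63100 from -0.30 to 0.32 and that of the E2F list from -0.20 to 0.13. The simulated recovery of 14.6% at a log2 size of 1 is over all genes. For the 7 members with intervals inside a 2-fold difference, a change of that size lies outside the interval, which is unadjusted. The intervals of CDKB2;1 and CDKB2;2 only just fit, reaching 0.99 and -0.98.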
